A study of Arabidopsis thaliana with 18 samples.

Results

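NDB2 (AT4G05020), AT2G21640 and AT5G09570 are 3 nuclear genes of mitochondrial proteins, taken here as a set of mitochondrial dysfunction genes. They were chosen by name, with earlier results of these data known. Each was read from its brightest array feature paired with that gene alone, which for each was also its 1 such feature, and together they are 3 of the 16548 genes measured. Their levels were followed on 18 one-colour arrays of Arabidopsis thaliana seedlings aged 10 days, in 9 groups of 2 arrays. The wild type (WT) is Col-0, and the other genotypes are the crf6 mutant and CRF6oe, a line named for the transcription factor gene CRF6 (CYTOKININ RESPONSE FACTOR 6, of the AP2/ERF family). The labels give no harvest time for untreated seedlings, and neither the crf6 allele nor the promoter or number of lines behind CRF6oe, and no feature used here was paired with CRF6, so the genotype labels were not checked on that gene. Each genotype was untreated, exposed for 6 h to 20 mM H2O2, or exposed for 6 h to 2 µM benzyl adenine (BA), a cytokinin. All solutions, controls included, held 0.2% DMSO, and seedlings were floated on 3 mM MES buffer for 1 h before the agent was added. According to the series text the aim was to find targets of CRF6.

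Plant mitochondria can pass electrons to oxygen by 2 routes. The cytochrome pathway runs through complexes that pump protons, while alternative NAD(P)H dehydrogenases and alternative oxidases bypass those complexes. When the cytochrome route is blocked or the organelle is oxidatively stressed, a signal from mitochondrion to nucleus, called retrograde signalling, raises a set of nuclear genes known as the mitochondrial dysfunction stimulon. NDB2 encodes an external alternative NADH dehydrogenase, which faces the intermembrane space and oxidises cytosolic NADH. AT2G21640 encodes a mitochondrial protein of unknown function that is widely used as a transcript marker of oxidative stress. AT5G09570 encodes a small cysteine-rich protein of the CHCH family, whose members fold in the intermembrane space. All 3 are known as members of the stimulon in Arabidopsis.

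Values are log2 signals, so a difference of 1 is a 2-fold change. Level and response of a gene were compared between arrays only, never between genes, because features differ in brightness. The mean over all arrays was 6.06 for NDB2, 5.66 for AT2G21640 and 3.35 for AT5G09570, which lay at the 67.0, 61.4 and 28.2 percentile of gene means. AT5G09570 was thus among the dimmer genes, and no background level or detection call was used here to say how much of its signal lies above background. A comparison passed where its adjusted p in limma, corrected over all 16722 features paired with 1 gene, was under 0.05, and errors of differences are standard errors (SE) from that fit. Whether the 2 arrays of a group stem from separately grown seedlings is not stated, so the p-values reflect the scatter of these arrays alone, and that scatter may be technical.

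Over all genes, replicates of 1 group correlated at r = 0.977 to 0.991 and WT with crf6 arrays at 0.948 or more. The 6 CRF6oe arrays correlated with the other 12 at 0.917 to 0.947. Of all genes, 25.2% were called in either direction between untreated CRF6oe and WT, against 0% between untreated crf6 and WT. The genotype CRF6oe and its set of arrays cannot be told apart, and some results that rest on these arrays are also given for WT and crf6 alone. As a check of organ composition, 2 of 19 leaf markers and 3 of 15 root markers were measured. The mean level of the leaf pair (LHCB4.1 and RCA) was 10.49 to 10.75 on WT and crf6 arrays and 9.30 to 10.27 on CRF6oe arrays. The mean of the root markers (EXPA7, EXPA18 and PYK10) was 6.81 to 7.08 on untreated WT and crf6 arrays and 6.08 to 6.20 on their H2O2 arrays, with 6.56 to 7.002 and 6.35 to 6.41 in CRF6oe. The part of organ composition in the results below was not tested, and in seedlings fewer cells of a type cannot be told apart from less RNA per cell. The BA treatment showed in its early target ARR15, a type-A response regulator, which rose by 3.73 in WT, 3.94 in crf6 and 3.81 in CRF6oe.

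NDB2 was higher with H2O2 than without it in each genotype. In WT the untreated arrays read 5.35 and 5.91 and the H2O2 arrays 6.96 and 6.99. In crf6 they read 5.93 and 5.70 untreated and 6.73 and 6.64 with H2O2. In CRF6oe they read 5.56 and 4.86 untreated and 6.67 and 6.75 with H2O2. The groups did not overlap in any genotype. All 6 H2O2 arrays, at 6.64 to 6.99, lay above all 12 other arrays, whose highest value was 6.25. The same separation was found for 0.508% of genes (84 of 16548), and this pattern was picked after the values were seen. The H2O2 pairs differed among themselves by at most 0.08, while the untreated pairs of WT and CRF6oe were 0.56 and 0.70 apart.

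The difference for NDB2 was 1.34 ± 0.23 in WT, a 2.54-fold rise (limma adjusted p = 0.00413), with a 95% interval of 1.80-fold to 3.57-fold. In CRF6oe it was 1.501 ± 0.23, or 2.83-fold (adjusted p = 0.00555). In crf6 it was 0.87 ± 0.23, or 1.83-fold, which did not pass (adjusted p = 0.0857). The WT call was lost without untreated replicate 1 of WT, where the difference was 1.06 (adjusted p = 0.0622), and in a fit restricted to the 4 arrays of that contrast (adjusted p = 0.0770). In a fit of that kind the CRF6oe call was lost too (adjusted p = 0.111). The crf6 difference passed with limma's array weights (adjusted p = 0.0328). Those weights came out equal for the 2 arrays of each group, such as 1.41 for untreated crf6, 1.08 for crf6 with H2O2 and 0.64 for WT with H2O2. They thus weight whole groups and cannot tell a better array from a worse one within a group. Averaged over the 3 genotypes, NDB2 rose by 1.24 ± 0.13 (adjusted p = 3.47e-05). The mean over WT and crf6 alone was 1.11 (adjusted p = 5.73e-04). That fit still used the CRF6oe arrays to estimate the scatter.

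AT2G21640 was also higher with H2O2 in each genotype, with the largest difference in WT. Its untreated WT arrays read 5.04 and 5.01 and its H2O2 arrays 6.49 and 6.60. In crf6 the values were 5.55 and 5.12 untreated and 5.72 and 6.16 with H2O2. In CRF6oe they were 5.37 and 5.51 untreated and 6.07 and 6.31 with H2O2. Groups did not overlap in any genotype, but in crf6 the nearest arrays were close. Of the 6 H2O2 arrays 5 lay above every array without H2O2. The exception was an array of crf6 at 5.72, below a crf6 array with BA at 5.87. The share of all genes with such a pattern is not given here. Both WT arrays with H2O2 lay above the other 16 arrays for AT2G21640 and for NDB2, a pattern shared by 1.78% of genes.

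The difference for AT2G21640 was 1.51 ± 0.25 in WT, or 2.86-fold (adjusted p = 0.00256). It passed under each alternative that kept 2 arrays in both groups compared. Over all 27 alternatives it ranged from 1.46 to 1.58. Of these alternatives 18 left out 1 array, and leaving out an array of another group cannot move the difference. In crf6 the difference was 0.61 ± 0.25 (1.52-fold, adjusted p = 0.406) and in CRF6oe 0.75 ± 0.25 (1.68-fold, adjusted p = 0.115), and neither passed. Averaged over genotypes the gene rose by 0.96 ± 0.14 (adjusted p = 5.76e-04).

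AT5G09570 was called higher with H2O2 in CRF6oe and not in WT or crf6. In WT its arrays read 3.22 and 3.30 untreated and 3.09 and 2.94 with H2O2. In crf6 they read 3.12 and 3.17 untreated and 3.12 and 3.53 with H2O2. In CRF6oe they read 3.21 and 3.32 untreated and 4.56 and 4.12 with H2O2. The H2O2 arrays thus lay below the untreated ones in WT, as for 19.5% of genes, overlapped them in crf6 and lay above them in CRF6oe. Both CRF6oe arrays with H2O2 exceeded the other 16 arrays, of which the highest was 3.81, and 6.5% of genes showed that separation. The difference was -0.24 ± 0.24 in WT (adjusted p = 0.822), 0.18 ± 0.24 in crf6 (adjusted p = 0.957) and 1.08 ± 0.24 in CRF6oe, a 2.11-fold rise (adjusted p = 0.0303). The CRF6oe call was lost without H2O2 replicate 1 of CRF6oe, where the difference was 0.86, without either untreated replicate of CRF6oe, after quantile normalization, with array weights, with unnamed features tested too and in a fit restricted to the 4 arrays of the contrast (adjusted p = 0.0554 to 0.195).

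In counts, 2 of the 3 genes rose with H2O2 in WT, where 1.5% of all genes rose. In crf6 0 of 3 were called, where 0.864% of all genes rose, although the unadjusted p was 0.00201 for NDB2 and 0.0263 for AT2G21640. In CRF6oe 2 of 3 rose against 1.41% of all genes, and in the mean over genotypes 2 of 3 against 3.5%. Since the genes were chosen with earlier results of these data known, these shares are a description and no test of the set. The pairs that passed differed, being NDB2 and AT2G21640 in WT and NDB2 and AT5G09570 in CRF6oe. Non-overlap was far more common, since the H2O2 arrays lay wholly above the untreated ones for 17.5% of genes in WT, 21.1% in crf6 and 25.9% in CRF6oe.

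**Figure D1:**
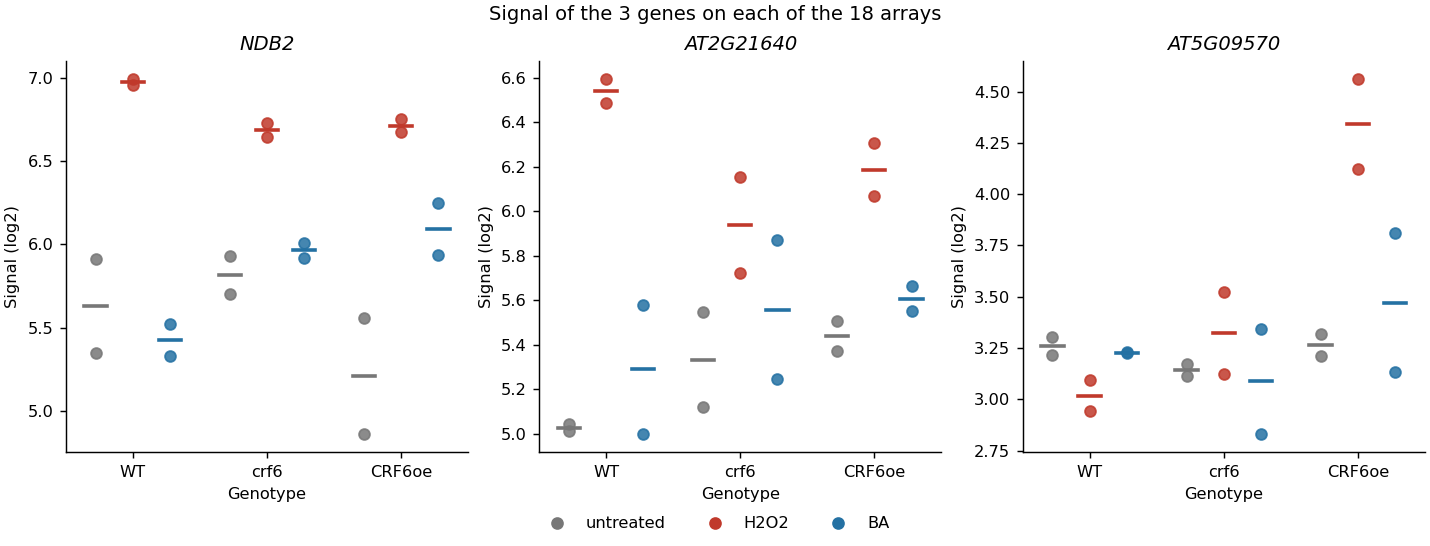
Log2 signal of each gene (vertical axes, which differ in range and do not start at 0) on the 18 arrays, by genotype and treatment, with points for arrays and bars for means of 2 arrays. The 6 H2O2 arrays of NDB2 sit at 6.64 or more, above all others, and AT5G09570 is raised on the CRF6oe arrays with H2O2 (4.56 and 4.12).

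A further test used each gene's own values alone. Treated and untreated arrays were exchanged within genotypes in all 216 ways, and the mean difference over 3 genotypes was compared with the result. The exact two-sided permutation p for H2O2 was 0.00926 for NDB2 and for AT2G21640, the smallest this design allows. For each of these genes 6 of 6 H2O2 arrays lay above the untreated arrays of their genotype. That non-overlap, already given above, fixes the p at its smallest value, so the test is no separate support for these 2 genes. The share of all genes with non-overlap in all 3 genotypes is not given here. For AT5G09570 the permutation p was 0.204 by the same exact test. With WT and crf6 alone the design cannot go below 0.0556, which both NDB2 and AT2G21640 reached in the exact test.

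With BA none of the 3 genes was called in any genotype. The BA and H2O2 responses of a genotype use the same untreated arrays, so they are not independent. In WT the BA arrays of NDB2 read 5.33 and 5.52, those of AT2G21640 5.58 and 5.00 and those of AT5G09570 3.23 and 3.23. In crf6 the readings were 6.01 and 5.92 for NDB2, 5.25 and 5.87 for AT2G21640 and 3.34 and 2.83 for AT5G09570. All of these overlapped the untreated arrays. The differences from untreated lay between -0.20 and 0.26 in WT and crf6, with 95% intervals that ran at most from -0.70 to 0.79. In CRF6oe the BA arrays of NDB2 read 6.25 and 5.93, above the untreated ones, a difference of 0.88 ± 0.23 that did not pass (adjusted p = 0.202, unadjusted p = 0.00178). Non-overlap of this kind was seen for 19.1% of genes. On these BA arrays the leaf marker pair averaged 9.30 and 9.72, against 9.96 and 10.15 in untreated CRF6oe, and its part in the result was not tested. AT2G21640 (5.55 and 5.66) also lay above its untreated arrays (5.37 and 5.51) there, by 0.17 ± 0.25. The arrays of AT5G09570 (3.81 and 3.13) overlapped, with a difference of 0.21 ± 0.24. The exact permutation p over 3 genotypes was 0.269 for NDB2, 0.185 for AT2G21640 and 0.750 for AT5G09570. Among all genes 0.163%, 0.236% and 0.212% were called with BA in WT, crf6 and CRF6oe, and 2.54% in the mean over genotypes.

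**Figure D2:**
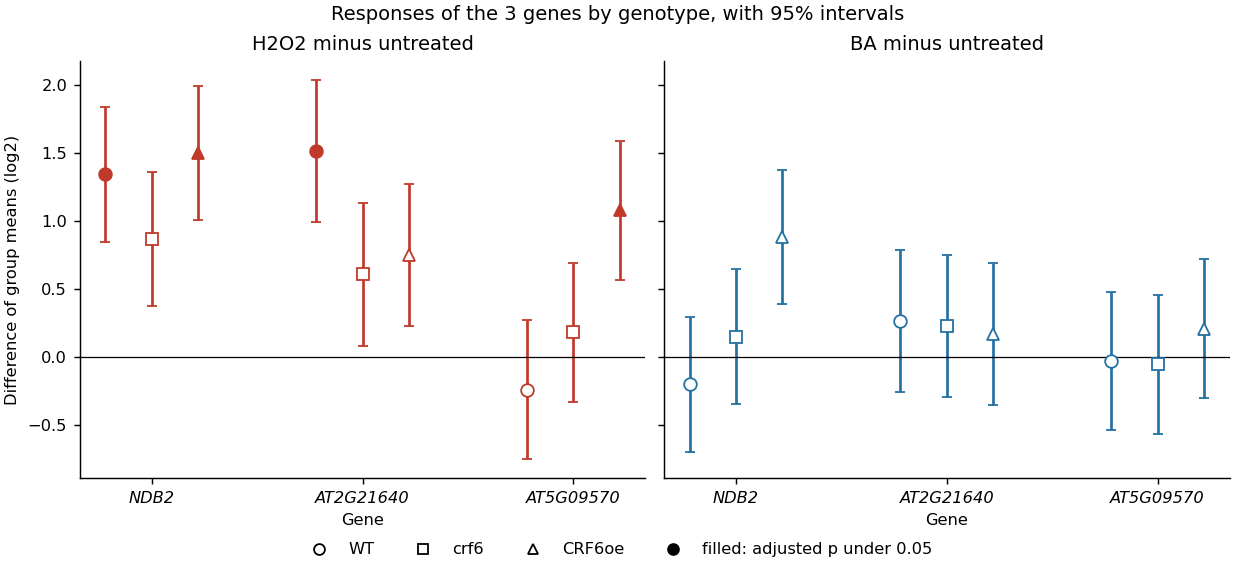
Difference of group means on the log2 scale (vertical axis) for H2O2 (left) and BA (right) against untreated, with 95% intervals from the fit of all arrays, symbols for genotypes and filled symbols for adjusted p under 0.05. The H2O2 intervals of NDB2 and AT2G21640 lie above 0 in each genotype, while that of AT5G09570 does so in CRF6oe alone.

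Set directly against BA, H2O2 gave higher levels of 2 of the 3 genes in WT, where 2.88% of all genes were higher. NDB2 differed by 1.55 ± 0.23 (adjusted p = 0.00106) and AT2G21640 by 1.25 ± 0.25 (adjusted p = 0.00719), the latter lost without BA replicate 2 of WT (0.96, adjusted p = 0.135) and in a fit of these 4 arrays alone (adjusted p = 0.0927). In crf6 none passed (NDB2 at 0.72, AT2G21640 at 0.38, AT5G09570 at 0.24), against 1.51% of all genes. In CRF6oe AT5G09570 stood 0.87 ± 0.24 higher (adjusted p = 0.0477), while NDB2 (0.62) and AT2G21640 (0.58) did not pass. That call, beside 3% of all genes, was kept in 6 of the 18 fits that left out 1 array.

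Between crf6 and WT none of the 3 genes was called in any condition, and limma called 0% of the 16548 genes within 1 condition (855 untreated, 1141 with H2O2 and 746 with BA at an unadjusted p under 0.05) and 0.574% in the mean of 3 conditions. For NDB2, untreated crf6 differed from WT by 0.19 ± 0.23, and crf6 with H2O2 by -0.29 ± 0.23. With BA it stood 0.54 ± 0.23 higher in crf6 (unadjusted p = 0.0348, adjusted p = 1.00), without overlap, as did 20.4% of genes. AT2G21640 was 0.31 ± 0.25 higher in crf6 untreated and stood at -0.60 ± 0.25 under H2O2 (unadjusted p = 0.0272, adjusted p = 0.669), where the crf6 arrays (5.72 and 6.16) lay below the WT arrays (6.49 and 6.60). Lower non-overlapping values of this kind were found for 15.7% of genes. NDB2 was likewise lower and AT5G09570 higher in crf6 without overlap, and 17% of genes were higher in that way. The H2O2 response of AT2G21640 in crf6 minus that in WT was -0.91 ± 0.35, with a 95% interval of -1.65 to -0.17 (unadjusted p = 0.0197, adjusted p = 1.00), that of NDB2 was -0.47 ± 0.33 (interval -1.17 to 0.23), and that of AT5G09570 0.42 ± 0.34 (interval -0.30 to 1.15). Limma called 0 of 16548 genes in this comparison, with 480 at an unadjusted p under 0.05. The intervals thus leave room for no difference in NDB2 and for one of over 2-fold, and a failed test does not show that the genotypes respond alike.

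CRF6oe differed from WT in 2 single conditions, each for 1 gene. Under H2O2 AT5G09570 stood 1.32 ± 0.24 above WT, 2.50-fold (adjusted p = 0.00102), a call kept in each of the 18 fits that left out 1 array. The share of genes called higher in that comparison was 14.6%. Under BA NDB2 stood 0.67 ± 0.23 above WT, 1.59-fold (adjusted p = 0.0485), next to 11.7% of genes, but the call was kept in just 4 of the 18 fits without 1 array, with differences of 0.51 to 0.82. Untreated, none was called: the difference was -0.42 ± 0.23 for NDB2, 0.41 ± 0.25 for AT2G21640 and 0.00 ± 0.24 for AT5G09570. Without untreated replicate 1 of CRF6oe the difference of NDB2 was -0.77 and passed (adjusted p = 0.0422). As the mean of 3 conditions, AT5G09570 was 0.52 ± 0.14 higher (adjusted p = 0.00598), in a comparison that called 23.2% of genes higher. The response to H2O2 in CRF6oe minus that in WT was 1.32 ± 0.34 for AT5G09570 (interval 0.60 to 2.04, adjusted p = 0.113), -0.77 ± 0.35 for AT2G21640 (adjusted p = 0.356) and 0.16 ± 0.33 for NDB2 (adjusted p = 0.891), so no difference in response passed, where 0.574% of genes did. The same contrast for BA gave 1.09 ± 0.33 for NDB2 (unadjusted p = 0.0048, adjusted p = 0.999). Limma called 0% of genes for either BA contrast of responses, with 760 at an unadjusted p under 0.05 for CRF6oe and 283 for crf6.

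Ordered by level over the 9 groups, NDB2 ran from WT with H2O2 (6.97 ± 0.02, SD, n = 2) through CRF6oe with H2O2 (6.71 ± 0.05) and crf6 with H2O2 (6.69 ± 0.06) down to untreated CRF6oe (5.21 ± 0.49). Arrays did not overlap across the first gap, between WT and CRF6oe with H2O2. The difference there, CRF6oe minus WT, was -0.26 ± 0.23 and did not pass (limma adjusted p = 0.425). Nor did arrays overlap across the gap of 0.59 between crf6 with H2O2 and CRF6oe with BA. All other neighbours in that order overlapped. AT2G21640 had the same 5 groups at the top, from 6.54 ± 0.08 in WT with H2O2 down to 5.03 ± 0.02 in untreated WT. Its gaps without overlap were those below WT with H2O2 (0.35) and below crf6 with H2O2 (0.33). For this gene too, CRF6oe minus WT under H2O2 did not pass (-0.35 ± 0.25, limma adjusted p = 0.301). The share of all genes with such gaps is not given here. AT5G09570 had CRF6oe with H2O2 first (4.34 ± 0.31), then a gap of 0.87, and the remaining groups between 3.47 ± 0.48 (CRF6oe with BA) and 3.02 ± 0.11 (WT with H2O2). Among these 8 groups, WT with BA and untreated crf6 were the 1 pair of neighbours without overlap, 0.08 apart.

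NDB2 and AT2G21640 followed each other over the arrays, while AT5G09570 did not follow them. As a description of likeness, Pearson's r over the 18 arrays was 0.77 for NDB2 with AT2G21640, 0.28 for NDB2 with AT5G09570 and 0.19 for AT2G21640 with AT5G09570. The arrays fall into treated and untreated groups and share their labels, so these values carry no p. For NDB2, 50 of the 16547 other genes were closer to it than AT2G21640 was, and 124 once genotype means were taken off. Over the 12 WT and crf6 arrays alone the values of r were 0.83, -0.16 and -0.35. On those arrays 198 genes were closer to NDB2 than AT2G21640 was.

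**Figure D3:**
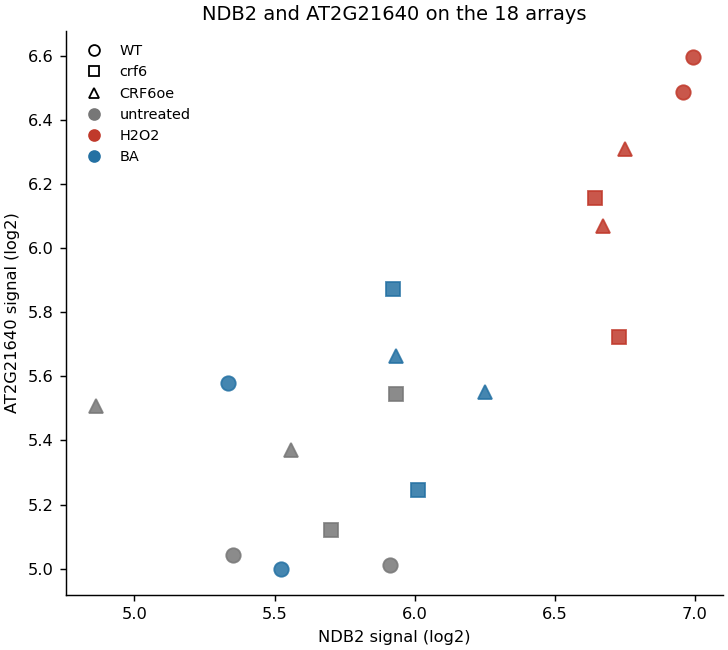
Log2 signal of NDB2 (horizontal axis) and AT2G21640 (vertical axis) on each of the 18 arrays, with symbols for genotype and colours for treatment. The 6 H2O2 arrays lie to the right, at NDB2 values of 6.64 to 6.99, and the WT arrays with H2O2 are highest for both genes.

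The genes closest to NDB2 over the 18 arrays were the DnaJ-domain gene AT1G71000 (r = 0.88), the cytochrome c gene CYTC-2 (r = 0.88) and Fes1A, a cofactor of HSP70 chaperones (r = 0.87). Over the 12 WT and crf6 arrays they stood at 0.95, 0.94 and 0.92. With H2O2 in WT these genes rose by 4.06, 1.33 and 3.72. The closest to AT2G21640 were AT5G39090 (r = 0.88), the co-chaperone Hop3 (r = 0.87) and the cinnamoyl-CoA reductase CCR2 (r = 0.85), which rose by 1.69, 3.33 and 2.56 in WT with H2O2. The genes closest to NDB2 and AT2G21640 were picked on these same arrays, so their rises with H2O2 are no separate finding. The closest to AT5G09570 were AT1G50350 (r = 0.89), AT1G66110 (r = 0.89) and AT4G17580 (r = 0.88), but over the 12 WT and crf6 arrays their r was 0.27, 0.49 and 0.58. Genes like all 3 at once were ranked by the smallest of the 3 values of r. The first was AT5G46500 (0.71), followed by the small heat shock protein gene AT1G52560 (0.68), AT2G29000 (0.64), AT1G67850 (0.62) and HSA32 (0.62). Without the CRF6oe arrays these 5 values were -0.06, -0.15, -0.01, 0.08 and -0.14.

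Few genes of the mitochondrial lists were measured. These lists cover the dysfunction response, its regulators, respiration, protein import and antioxidants. Of their 103 genes, the 3 described above included, 34 had a feature that the probe table paired with that gene alone. None of 13 listed regulators of retrograde signalling, such as the NAC factors ANAC013 and ANAC017, was among them, nor was the alternative oxidase gene AOX1A. The probe table does not list 20927 of the 38408 features. Whether the genes counted as not measured have features among these is not known. In the list of the dysfunction response, 8 of 17 genes were measured, and 5 of these are not among the 3 described above. Of these 5, 2 rose with H2O2 in WT, 1 in crf6 and 1 in CRF6oe, with medians of 1.12, 0.47 and 0.44, against medians of -0.02, 0.01 and 0.05 over all genes. AT5G51440, a mitochondrial small heat shock protein, went from 3.72 and 4.25 to 7.40 and 7.81 in WT, and its rises of 3.62 ± 0.25, 3.04 ± 0.25 in crf6 and 2.84 ± 0.25 in CRF6oe passed under every alternative tried. AT2G04070, of the MATE efflux family, rose by 1.43 ± 0.34 in WT (adjusted p = 0.0349), a call lost whichever of the 4 arrays was left out (differences of 1.31 to 1.55, adjusted p up to 0.198), and stood at 0.47 in crf6 and 0.44 in CRF6oe. AT2G04070 was among the dimmest 30% of features, and how much of its signal lies above background is not known here. AT2G04050 of the same family did not pass (0.43, 0.26 and 0.54), nor did AT5G43450 (1.12, 1.19 and -0.37) and NDB4 (0.09, -0.24 and 0.11).

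Within its own family NDB2 was the 1 measured gene that passed with H2O2, in WT and CRF6oe. The measured relatives were NDB3, NDB4 and NDC1, of 12 alternative dehydrogenases and oxidases listed. With H2O2 NDB3 stood at -0.51 ± 0.26 in WT, 0.05 in crf6 and 0.20 in CRF6oe, and NDC1, which also acts in plastids, at 0.08, 0.10 and 0.18. None of these was called with either treatment. NDC1 was 0.87 ± 0.15 lower in untreated CRF6oe than in WT (limma adjusted p = 6.90e-04), where NDB2 was not called. In that comparison 25.2% of all genes were called in either direction.

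Among 15 listed CHCH and other small intermembrane space proteins, 6 were measured, and AT5G09570 was the 1 that rose with H2O2, in CRF6oe. Its close paralogue AT5G64400 stood at 0.55 ± 0.17 in WT (adjusted p = 0.121), 0.41 in crf6 and 0.10 in CRF6oe. AT1G53030, a copper chaperone of cytochrome c oxidase, stood at 0.48, 0.09 and -0.81, and the subunit genes AT5G57815 (0.31, -0.08 and -0.56) and AT4G28060 (0.31, 0.07 and -0.23) were not called either. MIA40, which drives oxidative folding in the intermembrane space, stood at 0.25, 0.24 and -0.08. None of the 5 passed. In untreated CRF6oe AT1G53030 was 1.74 ± 0.21, AT4G28060 1.63 ± 0.20 and AT5G57815 0.72 ± 0.17 higher than in WT. There AT5G09570 was level with WT (0.00 ± 0.24). This comparison called 25.2% of all genes in either direction, and the CRF6oe genotype cannot be told apart from its set of arrays.

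In the cytochrome pathway and oxidative phosphorylation, 16 of 25 listed genes were measured and CYTC-2 alone rose with H2O2. Cytochrome c carries electrons from complex III to complex IV. CYTC-2 went from 6.31 and 6.37 to 7.56 and 7.80 in WT, a rise of 1.33 ± 0.18 (adjusted p = 7.12e-04) that passed under every alternative. It rose by 0.75 ± 0.18 in crf6 (adjusted p = 0.0497) and 0.79 ± 0.18 in CRF6oe (adjusted p = 0.0350), calls that held under 12 of 27 and 17 of 26 alternatives. The list's median was 0.02 in WT, 0.03 in crf6 and -0.10 in CRF6oe. Of mitochondrial chaperones and import proteins 2 of 19 were measured, AT5G51440 and AT1G52560, and both rose in all 3 genotypes. AT1G52560 rose by 1.65 ± 0.28, 1.23 ± 0.28 and 3.37 ± 0.28 in WT, crf6 and CRF6oe, with the WT call lost without H2O2 replicate 1 of WT (1.25, adjusted p = 0.0620) and in a fit of the 4 arrays of the contrast (adjusted p = 0.0690), and the crf6 call (adjusted p = 0.0390) held under 13 of 27 alternatives. Of 10 mitochondrial antioxidants and carriers, PRXIIF and TO1 were measured and neither was called.

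**Figure D4:**
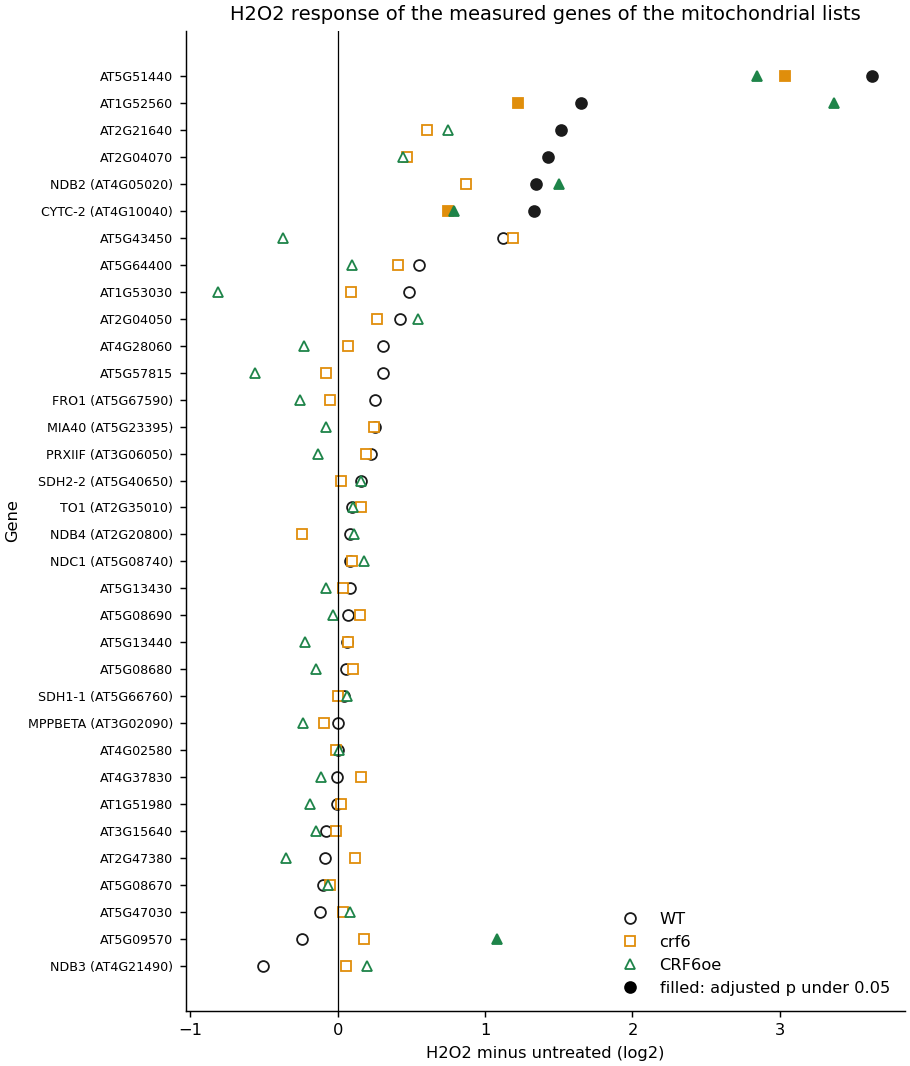
H2O2 minus untreated on the log2 scale (horizontal axis) for the 34 measured genes of the mitochondrial lists, ordered by the WT value, with symbols for genotypes and filled symbols for adjusted p under 0.05. The 6 genes called in WT, AT5G51440, AT1G52560, AT2G21640, AT2G04070, NDB2 and CYTC-2, lie furthest to the right there, and AT5G09570 stands apart from its WT and crf6 values in CRF6oe (1.08).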

How the data were processed

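The authors deposited 1 value per feature and array, used here as log2 signals with no further scaling. The log2 scale is read from the deposited values (array medians 4.63 to 4.98, highest value 14.26), since the sources used here do not give the authors' background correction, normalization or batches. Of 38408 features, 16722 were paired with 1 gene by the platform's probe table. The brightest stood for each gene, and symbols came from a RefSeq table for TAIR10.1, in which 16574 features matched.

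A linear model of 9 group means was fitted to the 16722 features on all 18 arrays with limma 3.58.1 (R 4.3.3), with eBayes moderation, two-sided contrasts and Benjamini-Hochberg adjustment. The fit was also run on simulated data with independent noise of the spread that the fit had estimated. Such data cannot show how the fit handles scatter shared between arrays. The members, lists and tests were chosen with earlier results of these data known. Named genes are the members, listed genes by rule, and for likeness the 3 genes closest to each member and the 5 closest to all. The number of arrays limits the precision.

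Deviations of same-numbered replicates were correlated between groups. Of 36 pairs of groups, 7 had r over 0.1 and 3 under -0.1. Of the 9 pairs within a genotype, 4 had r over 0.1 and 2 under -0.1. The signs were mixed, so the numbers were not taken as pairing. No genome sequence, promoter or protein table was used.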

Additional observations from a re-analysis of the deposited data

How the results depend on the processing

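Each comparison was repeated under quantile normalization, centring on array medians, unnamed features tested too, no dim features, trended robust moderation, array weights, replicate number as a block, only the arrays of the contrast, WT and crf6 arrays only, and without each array in turn. The dim filter removed AT5G09570 and the pathway gene AT2G04070, which then have no value. None of the 3 genes had another feature to try. Of 672 values of the 3 genes and 4 pathway genes outside the single-array omissions, 635 kept direction and call, 28 lost and 2 gained a call, and 7 changed sign. Most of these values belong to comparisons that were not called in the main fit, which had no call to lose. The rises of NDB2 and AT2G21640 in the mean over genotypes passed under all 27 alternatives. The cause of the changes was not tested. Counts of alternatives passed include the 18 fits that left out 1 array. Where that array is outside a contrast the difference cannot move, so such counts overstate how far a call was tried.

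Counts of the 3 genes called moved as follows. With only the arrays of the contrast, the count was 1 for H2O2 in WT, 0 for H2O2 in CRF6oe, 1 for H2O2 against BA in WT, 0 for the same in CRF6oe, and 0 for CRF6oe against WT under BA. With array weights it was 1 for H2O2 in crf6, 1 for H2O2 in CRF6oe, 1 for H2O2 against BA in crf6, 0 for the same in CRF6oe and 0 for CRF6oe against WT under BA. With unnamed features tested too it was 1 for H2O2 in CRF6oe, 0 for H2O2 against BA in CRF6oe and 0 for CRF6oe against WT under BA. Quantile normalization gave 1 for H2O2 in CRF6oe and 0 for H2O2 against BA in CRF6oe, as did centring for the latter (0). The replicate block gave 0 for CRF6oe against WT under BA (NDB2 adjusted p = 0.0535) and changed no other call of the 3 genes. The replicate numbers were not taken as pairing (correlations of deviations of -0.20 to 0.33).

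Without single arrays, counts ran from 1 to 2 for H2O2 in WT and CRF6oe, 0 to 1 in crf6, 1 to 2 for H2O2 against BA in WT, 0 to 1 for it in CRF6oe, and 0 to 1 for CRF6oe against WT, both untreated and under BA. Differences that changed sign were not called in any fit. For AT5G09570 they ran from -0.020 to 0.38 for H2O2 in crf6, -0.076 to 0.011, -0.31 to 0.20, -0.13 to 0.54 and -0.074 to 0.15 for BA in WT, crf6, CRF6oe and their mean, -0.020 to 0.49 for H2O2 against BA in crf6, -0.40 to 0.12 and -0.069 to 0.10 for crf6 against WT under BA and on average, -0.050 to 0.059 and -0.095 to 0.58 for CRF6oe against WT untreated and under BA, and -0.28 to 0.23 and -0.10 to 0.58 for the BA response of crf6 and CRF6oe minus that of WT. For AT2G21640 they ran from -0.028 to 0.55 and -0.088 to 0.54 for BA in WT and crf6, -0.044 to 0.58 and -0.11 to 0.10 for crf6 against WT under BA and on average, and -0.35 to 0.28 and -0.38 to 0.20 for the BA response of crf6 and CRF6oe minus that of WT. For NDB2 they ran from -0.49 to 0.076 for BA in WT, -0.095 to 0.47 for untreated crf6 against WT, -0.12 to 0.11 for CRF6oe against WT on average, and -0.19 to 0.51 for the H2O2 response of CRF6oe minus that of WT.

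Quantile normalization turned the sign of AT5G09570 for BA in WT (0.016) and for untreated CRF6oe against WT (-0.056) and of NDB2 for CRF6oe against WT on average (0.061), and centring that of AT5G09570 for crf6 against WT on average (-0.011). Averaging WT and crf6 alone, chosen after seeing the data for limma, gave -0.031 for AT5G09570 with H2O2, and -0.028 and -0.045 for NDB2 and AT5G09570 with BA. The exact permutation test over those arrays gave the same means, and 1.11 for NDB2 and 1.06 for AT2G21640 with H2O2 at its smallest possible p of 0.0556.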
